A study of Sus scrofa with 40 samples.

Results

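MDM2 and the genes around it on the p53 axis were followed across 2 mtDNA states and 2 library types in pig oocytes arrested at metaphase II, when the mature egg is ready to be fertilised. The list held 9 genes, and 8 of them had a row among the 38794 named rows of the deposited count tables. MDM2, MDM4, USP7, CDKN1A and CHEK1 were found by symbol, and TP63, PPM1D and TP53BP1 by the gene number in their row name. CHEK2 matched no row and is not analysed here. MDM2 was chosen on its values in the pooled libraries, where it was among the genes of smallest p, so values from that comparison are a description of the members with no test.

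p53 is a transcription factor that halts the cell cycle or starts cell death after damage, and its protein level is held down mainly by MDM2, a ubiquitin ligase that marks p53 for the proteasome. MDM2 is itself a p53 target gene, closing a negative feedback loop. In oocytes the family member p63, the product of TP63, is known from mouse to guard genome quality in place of p53, with the checkpoint kinases acting upstream of it.

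The labels class the samples as mtDNA-deficient or mtDNA-normal oocytes of a commercial hybrid pig (Large White, Duroc and Berkshire), and name no treatment. There were 5 deficient and 6 normal pools, prepared by column extraction and single-primer isothermal amplification, and 14 deficient and 15 normal single oocytes, extracted in the tube and prepared with a kit that uses pig-specific depletion primers. The labels give neither the number of oocytes in a pool nor the age of the animals, and the titles of single oocytes carry the words BCBneg or BCBpos. Every deficient oocyte was BCBneg and every normal oocyte BCBpos. Pool titles carry neg or pos in the same way, so state and title word are the same contrast. Counts of single oocytes were added up within a state over those with the same leading number in the title, a number the labels do not explain. This gave 4 deficient sums (1, 2, 3 and 4, of 2, 2, 3 and 7 oocytes) and 3 normal sums (2, 3 and 4, of 4, 4 and 7 oocytes). Levels are CPM, a gene's share of the counts of a library scaled up to a fixed total, after TMM scaling, and they depend on gene length and so are not compared between genes. Nothing in the labels ties the replicates to separate animals, so a p-value here measures only how far these samples spread, which may be technical.

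Pools held 14480546 to 29538982 counts and single oocytes 706929 to 3067523, so a low gene rests on far fewer counts in an oocyte than in a pool. Most oocyte markers were well detected: each of the 13 had a count in at least 1 pool, and 10 of them reached 10 CPM in pools. The others were sparse in oocytes. DDX4 had counts in all 11 pools and in 12 of 29 oocytes. FIGLA had counts in 9 pools and 11 oocytes, and NOBOX in only 1 pool and 1 oocyte. Of 18 cumulus and granulosa markers with a row, 7 had no count in any pool, FOXL2, AMH and LHCGR among them, and VCAN, GATA4 and INHBA reached 10 CPM. Only 3 of the 18 had no count in any single oocyte. GATA4 and INHBA had counts in all 29 oocytes, VCAN in 26, STAR in 24 and CYP11A1 in 23. NR5A1 had counts in 8 oocytes, and FOXL2 and LHCGR in 2 each. Transcripts of mtDNA were not analysed here, so the state labels were not checked against them. In an oocyte 46.7% to 70.7% of counts (deficient) or 56.2% to 76.0% (normal) fell on the single row LOC102158401, which took at most 0.0275% in any pool.

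MDM2 stood higher in every deficient pool than in every normal pool. Deficient pools A1, A2, A3, B2 and B4 had 28.1, 30.1, 15.4, 15.8 and 10.9 CPM. Normal pools A2, A3, A4, B1, B2 and B4 had 1.61, 5.15, 6.52, 6.53, 3.07 and 2.20 CPM. The groups did not overlap, and the lowest deficient pool (B4) stood above the highest normal pools (A4 and B1), while deficient A1 and A2 stood apart above the other deficient pools. These levels rested on 256 to 615 counts in a deficient pool and 42 to 193 counts in a normal one. The means were 20.1 ± 8.52 CPM (SD) over 5 deficient pools and 4.18 ± 2.18 CPM (SD) over 6 normal pools, with a log2 difference of 2.26 (SE 0.42), or 4.79-fold. Of 11826 tested genes with a mean of at least 1 CPM, 18 had a larger log2 difference. MDM2 was the only member whose pools did not overlap. The share of all 13540 genes whose deficient pools all lay above the normal pools was 0.325%. MDM2 was chosen on this contrast, so nothing is read from that share or from its rank among the 11826 genes.

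**Figure D1:**
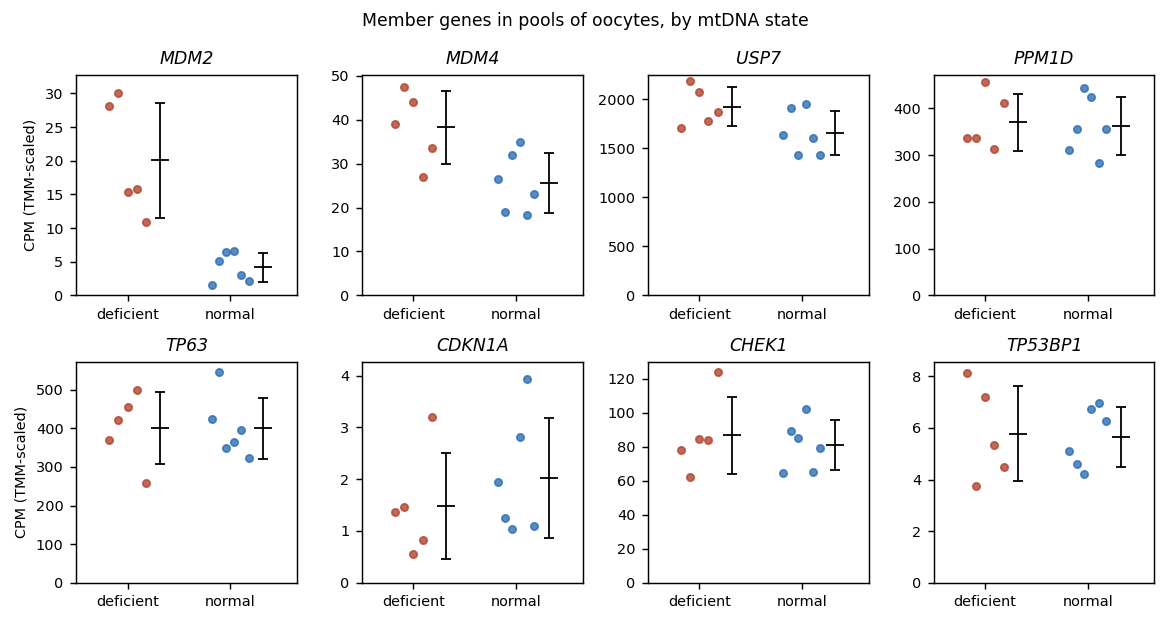
TMM-scaled CPM of the 8 members with a row in each pool, 5 deficient (red) and 6 normal (blue); the black mark and bar beside each group give its mean ± SD, and each panel has its own axis from 0. MDM2 shows 2 separate groups, at 10.9 to 30.1 CPM in deficient and 1.61 to 6.53 CPM in normal pools, whereas the groups of the other 7 members overlap.

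The pool labels A2, A3, B2 and B4 occurred in both states, although whether a label marks a shared source is not stated. MDM2 was 18.7 times as high in the deficient as in the normal pool labelled A2, 2.99 times in A3, 5.14 times in B2 and 4.96 times in B4. Every deficient pool lay above every normal pool, so the direction had to be the same under every label. The same holds within both title letters, A and B, so neither adds support. The ratio under A2 sets the highest deficient pool against the lowest normal pool. With the letter as a covariate the log2 difference was 2.16 (SE 0.43).

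Measures of the libraries were set beside MDM2, and on each the groups overlapped. Deficient pools had 14207 to 18456 genes with a count and normal pools 15057 to 19245, and the 18S ribosomal RNA gene took 0.177% to 0.441% of counts in deficient and 0.175% to 1.30% in normal pools. With the number of genes as a covariate the MDM2 log2 difference was 2.06 (SE 0.41), and with the log2 share of 18S it was 2.05 (SE 0.43). The summed level of the cumulus and granulosa markers spanned 125 to 271 CPM in deficient and 157 to 225 CPM in normal pools, and its part in the result was not tested. The row that names no gene took 2.99% to 4.75% of counts in deficient pools and 1.05% to 3.43% in normal pools. Of the normal pools only A3 lay inside the deficient range, so this share nearly followed the state. Its part in the result was not tested either. In a pool, fewer cells carrying a transcript and less of it per cell cannot be told apart.

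**Figure D2:**
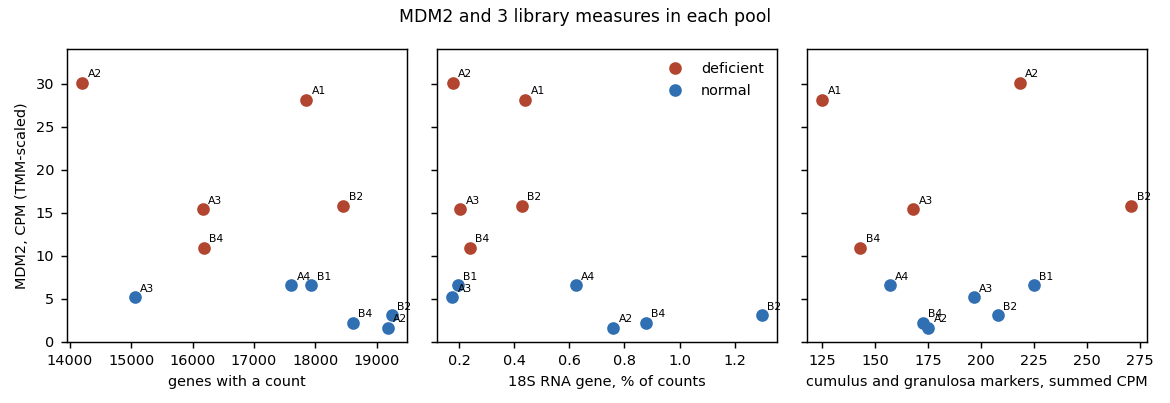
MDM2 level of each pool (TMM-scaled CPM) against the number of genes with a count, the share of counts on the 18S ribosomal RNA gene and the summed level of cumulus and granulosa markers, with deficient pools in red and normal pools in blue and the pool label beside each point. The groups overlap along each horizontal axis and not on the vertical one, and the 4 pools with over 0.6% of counts on 18S are all normal.

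The genes next to MDM2 in the Sscrofa11.1 annotation, which do not overlap it, gave separate values in pools. SLC35E3, a solute carrier family member, averaged 4.40 CPM in deficient pools, against 6.34 CPM in normal pools (log2 difference -0.52, SE 0.49). The carboxypeptidase M gene averaged 162 CPM in deficient pools, against 108 CPM in normal pools (log2 difference 0.58, SE 0.28). Neither had a difference near that of MDM2 in size.

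Within a state, MDM2 varied more between pools than most members. The within-state SD of log2 CPM was 0.74 for MDM2, against 0.17 for USP7, 0.24 for PPM1D, 0.31 for CHEK1, 0.32 for TP63, 0.36 for MDM4 and 0.38 for TP53BP1, and 0.82 for CDKN1A, the member with the fewest counts. After the mean of each state was taken out, the genes whose log2 CPM followed MDM2 most closely over the 11 pools, among 6354 genes compared, were FAM171B (Pearson r = 0.89), EIF4E, the cap-binding factor of translation (r = 0.88), LOC106509515 (r = 0.87), LOC100625271 (r = 0.85) and PPP4R3A, a regulatory subunit of protein phosphatase 4 (r = 0.85). MDM4 had r = 0.41 and the other members -0.12 to 0.25. These values describe 11 pools that share their depth and genes detected with each gene, and the 5 leading genes are the top of a large search.

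Single oocytes gave an independent look at MDM2, and there the groups overlapped. MDM2 had at least 1 count in 10 of 14 deficient oocytes and 8 of 15 normal oocytes, with 31 counts over all deficient and 27 counts over all normal oocytes. Deficient sums 1, 2, 3 and 4 held 10, 5, 6 and 10 counts, or 3.06, 2.37, 1.04 and 0.94 CPM. Normal sums 2, 3 and 4 held 0, 18 and 9 counts, or 0, 3.00 and 0.90 CPM. Normal sum 2 alone had none, which at its depth allows up to 0.637 CPM before TMM scaling (3 counts, for counting error only), and normal sum 3 stood close to the highest deficient sum. The log2 difference was 0.42 (SE 1.04, 95% interval -1.78 to 2.62), with an edgeR adjusted p of 1.00. That interval holds both 0 and the value found in pools. It rested on single sums: without normal sum 2 the log2 difference was -0.12, and without normal sum 3 it was 1.77. A difference of the size found in pools could not be resolved with these counts.

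The 2 dates in the column names gave different orders. Among oocytes of 17 September MDM2 averaged 1.40 ± 1.45 CPM (SD) over 8 deficient oocytes and 1.63 ± 2.08 CPM (SD) over 9 normal oocytes. Among oocytes of 22 September it averaged 1.51 ± 1.53 CPM (SD) over 6 deficient oocytes and 0.335 ± 0.822 CPM (SD) over 6 normal oocytes. These differences are within the spread between oocytes, and MDM2 was below the count filter when oocytes were fitted one by one, so no test was made within a date.

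**Figure D3:**
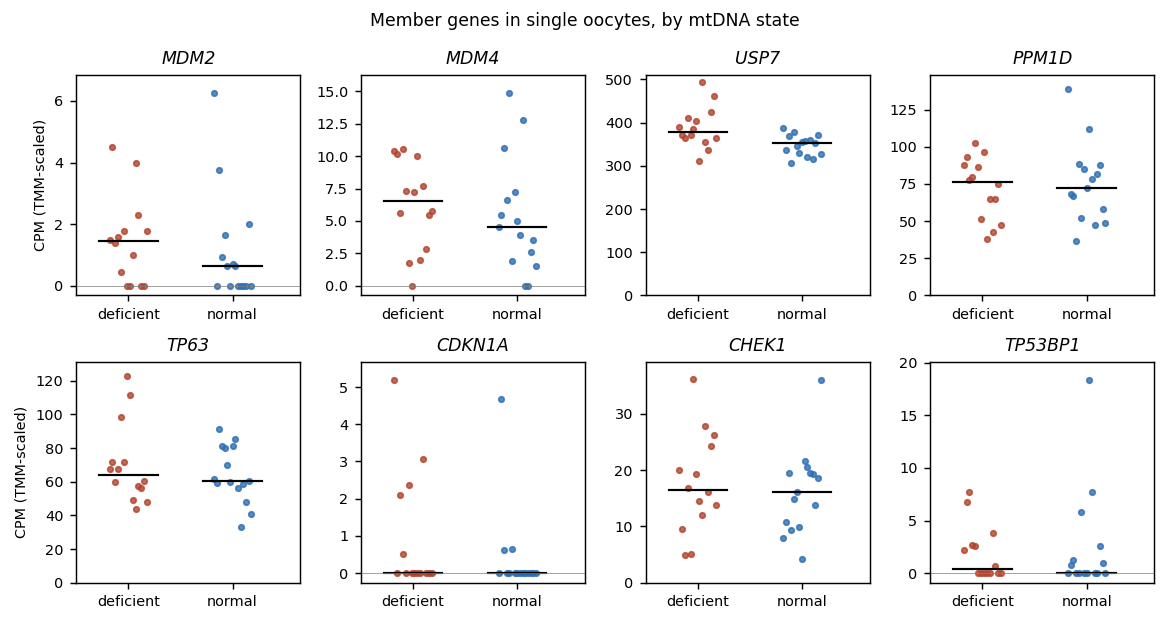
TMM-scaled CPM of the 8 members in each single oocyte, 14 deficient (red) and 15 normal (blue), with the median of each group as a black line and a separate axis for each panel. The groups overlap for every member, and MDM2, CDKN1A and TP53BP1 have many oocytes at 0.

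MDM4, the partner of MDM2 that binds p53 and blocks its activity, was the member with the next largest positive difference in pools. It stood at 39.1, 47.5, 44.0, 26.9 and 33.5 CPM in deficient pools A1, A2, A3, B2 and B4, and at 26.4, 18.9, 32.02, 34.9, 18.3 and 23.2 CPM in normal pools A2, A3, A4, B1, B2 and B4. Deficient A1, A2 and A3 lay above all normal pools, while B2 and B4 lay among them. The log2 difference was 0.58 (SE 0.24). Under the labels that both states share, MDM4 was 1.45 to 2.32 times as high in the deficient pool. The ratio of MDM2 to MDM4 counts, which needs no scaling between libraries, ran from 0.325 to 0.720 in deficient pools and from 0.061 to 0.272 in normal pools. In the single-oocyte sums the same ratio was 0.313, 0.417, 0.133 and 0.222 in deficient sums 1 to 4 and 0, 0.462 and 0.180 in normal sums 2 to 4, so it separated the states in pools and overlapped in the sums. MDM2 was chosen on its pooled values, so nothing is read from the separation of this ratio in pools.

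In single oocytes MDM4 averaged 6.88 ± 2.42 CPM (SD) over 4 deficient sums and 5.17 ± 1.25 CPM (SD) over 3 normal sums. The log2 difference of 0.40 (SE 0.48, 95% interval -0.62 to 1.41) had an edgeR adjusted p of 1.00. It was positive in each of 15 other settings, from 0.15 to 0.59. By oocyte, MDM4 ran from 0 through a median of 6.53 to 10.5 CPM in deficient and from 0 through a median of 4.56 to 14.9 CPM in normal oocytes.

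USP7, the deubiquitinase that removes ubiquitin from MDM2 and p53, was measured with the most counts of the members and varied least. Deficient pools A1, A2, A3, B2 and B4 had 1706, 2180, 2069, 1776 and 1873 CPM, and normal pools A2, A3, A4, B1, B2 and B4 had 1638, 1906, 1426, 1946, 1600 and 1427 CPM. The groups overlapped, with normal A3 and B1 inside the deficient range, and the log2 difference was 0.21 (SE 0.17).

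In single oocytes all 4 deficient sums of USP7 lay above all 3 normal sums. Deficient sums 1 to 4 had 362, 404, 374 and 364 CPM and normal sums 2 to 4 had 324, 338 and 334 CPM. The gap was small: the log2 difference was 0.18 (SE 0.17, 95% interval -0.18 to 0.54) with an edgeR unadjusted p of 0.309 and an adjusted p of 1.00. USP7 was 1 of 7 members tested whose deficient sums all lay above the normal ones, and 1.91% of all 11964 genes tested did so. The direction was the same on both dates. USP7 averaged 376 ± 30.8 CPM (SD) over 8 deficient oocytes and 352 ± 25.6 CPM (SD) over 9 normal oocytes of 17 September, and 406 ± 63.6 CPM (SD) over 6 deficient oocytes and 341 ± 22.8 CPM (SD) over 6 normal oocytes of 22 September. With each oocyte as a sample the log2 difference was 0.16 (SE 0.09) and the edgeR adjusted p 0.999. That fit takes oocytes as replicates of a state, which they are not, so its smaller SE is not read as a gain in precision.

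PPM1D, the phosphatase WIP1 that switches off p53 and its upstream kinases, was close to equal between the states. It averaged 370 ± 60.6 CPM (SD) over 5 deficient pools, over a range of 312 to 456, and 363 ± 62.9 CPM (SD) over 6 normal pools, over 283 to 444. The log2 difference was 0.03 (SE 0.18) in pools. In single-oocyte sums it was -0.05 (SE 0.23, 95% interval -0.53 to 0.43), with 70.7 ± 18.9 CPM (SD) over 4 deficient sums and 73.3 ± 5.56 CPM (SD) over 3 normal sums.

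TP63, the family member that acts in oocytes, had counts in every pool and oocyte and did not separate the states. It stood at 371, 422, 454, 500 and 259 CPM in deficient pools A1, A2, A3, B2 and B4 and at 423, 546, 349, 365, 396 and 323 CPM in normal pools A2, A3, A4, B1, B2 and B4. Both groups covered most of the same range, and the log2 difference was 0.00 (SE 0.20). In single oocytes the sums averaged 62.8 ± 13.5 CPM (SD, n = 4) in the deficient state and 60.6 ± 12.5 CPM (SD, n = 3) in the normal state, a log2 difference of 0.06 (SE 0.23, 95% interval -0.44 to 0.55). The TP73 row had no count in pools or oocytes.

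TP63 levels also went with the date in the column names. Oocytes of 17 September averaged 83.9 ± 23.6 CPM in the deficient state (SD, n = 8) and 74.4 ± 12.1 CPM in the normal state (SD, n = 9). Oocytes of 22 September averaged 52.6 ± 6.47 CPM in the deficient state and 49.5 ± 11.1 CPM in the normal state (SD, n = 6 each). The date and the title numbers are partly tied, since title numbers 1 and 3 occur only on the earlier date and 2 only on the later one.

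CDKN1A, which encodes the cell cycle inhibitor p21 and is a textbook p53 target like MDM2, was near the floor. Deficient pools A1, A2, A3, B2 and B4 had 1.37, 1.46, 0.55, 0.83 and 3.19 CPM (11 to 75 counts), and normal pools A2, A3, A4, B1, B2 and B4 had 1.95, 1.24, 1.05, 2.82, 3.94 and 1.10 CPM (21 to 127 counts). The groups overlapped throughout, and CDKN1A was the only member lower on average in deficient pools, with a log2 difference of -0.45 (SE 0.62). Single oocytes gave 19 counts in 5 of 14 deficient oocytes and 8 counts in 3 of 15 normal oocytes, which was below the count filter, so no test was made.

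CHEK1, the checkpoint kinase that acts below ATR, averaged 86.7 ± 22.8 CPM (SD) over 5 deficient pools, over 62.3 to 124, and 80.9 ± 14.6 CPM (SD) over 6 normal pools, over 64.3 to 102, a log2 difference of 0.10 (SE 0.21). Its single-oocyte sums averaged 15.5 ± 5.38 CPM in the deficient state (SD, n = 4) and 14.7 ± 3.00 CPM in the normal state (SD, n = 3), a log2 difference of 0.07 (SE 0.36, 95% interval -0.69 to 0.82). TP53BP1, a mediator of double-strand break repair, averaged 5.78 ± 1.85 CPM (SD) over 5 deficient pools and 5.65 ± 1.16 CPM (SD) over 6 normal pools, a log2 difference of 0.03 (SE 0.35). Its sums had a log2 difference of -0.07 (SE 0.98, 95% interval -2.15 to 2.00), or -1.13 (SE 1.31) with the title number as a replicate block and -0.81 by limma-voom, and 7 of 14 deficient and 7 of 15 normal oocytes had a count. TP53BP1 overlaps TUBGCP4 in the Sscrofa11.1 annotation, and no strand setting of the counting is known, so reads of the overlap cannot be told apart.

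Over the members as a set, 8 of 8 with a row passed the count filter in pools, 7 of them with a positive log2 difference, with a median of 0.07 over the 8. The signs of TP63, PPM1D, TP53BP1 and CHEK1 turned in other settings in both library types. Over all 13540 genes tested in pools the median was -0.0019 and 49.8% were positive. In single oocytes 7 passed the filter, 5 of them positive with a median of 0.07, where all 11964 genes had a median of -0.0018 and 49.7% positive. By edgeR, 0 of 7 members and 0 of 11964 genes (0%) passed an adjusted p of 0.05 in single oocytes. There were 231 genes at an unadjusted p under 0.05, and DESeq2 called 2 genes and limma-voom 0, none of them members, and the smallest unadjusted p of a member was that of USP7. In pools edgeR called 0 of 13540 genes (0%), DESeq2 28 and limma-voom 0, and 726 genes had an unadjusted edgeR p under 0.05. With the title number as a replicate block in single oocytes, edgeR called 2 genes, both lower in deficient sums, and 0 members.

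**Figure D4:**
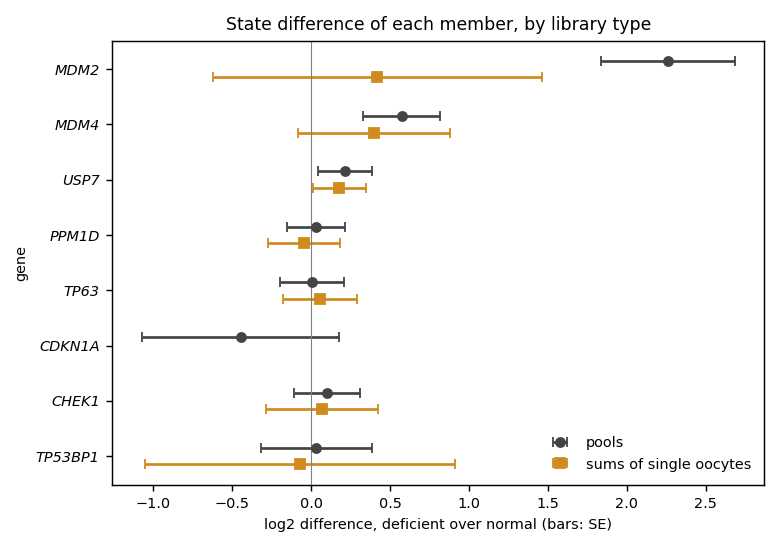
Log2 difference of deficient over normal for each member, with its SE as a bar, in pools (grey circles) and in sums of single oocytes (orange squares); CDKN1A has no value in single oocytes. MDM2 in pools, at 2.26, lies apart from all other values, which run from -0.45 to 0.58, and its single-oocyte value of 0.42 has an SE of 1.04.

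The difference of the state effect between the library types was estimated in one fit over pools and sums. For MDM2 the log2 difference was larger in pools by 1.91 (SE 0.95), given without a test because the pools chose the gene. For the other 7 members the same quantity ran from -1.53 (SE 1.42) for CDKN1A to 0.21 (SE 0.47) for MDM4. For this term edgeR called 0 of 17643 genes (0%) and DESeq2 called 1, and 939 genes had an unadjusted edgeR p under 0.05. The SE of this term was 0.25 for USP7, 0.31 for PPM1D, 0.34 for TP63, 0.40 for CHEK1 and 0.47 for MDM4, and 0.98 for TP53BP1, against a median of 1.00 over all genes.

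Set side by side, CPM of the members was lower in single oocytes than in pools. MDM2 averaged 1.27 ± 1.60 CPM over 29 oocytes, or 3.49 ± 4.37 CPM with the row LOC102158401 left out of the total, and 11.4 ± 10.01 CPM over 11 pools. That pooled mean mixes 2 groups that did not overlap. In the normal state MDM2 averaged 3.04 ± 4.84 CPM in oocytes without that row and 4.18 ± 2.18 CPM in pools. In the deficient state it averaged 3.99 ± 3.93 CPM and 20.1 ± 8.52 CPM, the latter in pools used in choosing the gene. USP7 averaged 367 ± 42.6 CPM in oocytes, or 1008 ± 119 CPM without that row, and 1777 ± 246 CPM in pools. TP63 averaged 67.4 ± 20.5 CPM in oocytes, or 185 ± 56.0 CPM without that row, and 401 ± 81.0 CPM in pools. With that row left out the order turned for CDKN1A and TP53BP1. CDKN1A averaged 1.82 ± 3.91 CPM in oocytes and 1.77 ± 1.08 CPM in pools, and TP53BP1 6.06 ± 10.9 CPM in oocytes and 5.71 ± 1.43 CPM in pools, differences far within their spread. Library type, kit, extraction and depth cannot be told apart in these values.

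Other genes of the pathway were taken from 4 lists, and edgeR, DESeq2 and limma-voom called 0 of their genes in either library type. At an unadjusted edgeR p under 0.05 the lists, in the order below, held 3, 2, 2 and 0 genes in pools and 1, 0, 3 and 0 in single oocytes, where all genes held 726 of 13540 in pools and 231 of 11964 in single oocytes. Of 27 further p53 family members and regulators, 22 were tested in pools, 10 of them higher in the deficient state and 12 lower with a median log2 difference of -0.09, and 22 in single oocytes, 9 higher and 13 lower with a median of -0.06. Of 35 p53 target genes, 18 were tested in pools, 7 higher and 11 lower with a median of -0.34, and 16 in single oocytes, 6 higher and 10 lower with a median of -0.08. The pooled median leans on genes of low CPM. TP53I3, DDB2, TIGAR, PLK2, PMAIP1, BTG2 and SESN2, all lower, averaged 0.64 to 2.24 CPM over all pools, with SEs of 0.70 to 1.18. MDM2 itself stood in that range in normal pools A2 and B4, at 1.61 and 2.20 CPM. SFN, POLH, XPC and PLK3 were lower at 4.76, 8.86, 16.2 and 37.7 CPM. The 7 higher targets averaged 11.5 CPM (APAF1) or more. Of 26 damage kinases and mediators, 23 were tested in pools, 12 higher and 11 lower with a median of 0.01, and 21 in single oocytes, 8 higher and 13 lower with a median of -0.06. Of 15 genes of oocyte quality control, 8 were tested in pools, 2 higher and 6 lower with a median of -0.06, and 7 in single oocytes, 3 higher and 4 lower with a median of -0.02.

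The genes of smallest p in each list did not pass the adjusted test and are given as mean ± SD over 5 deficient and 6 normal pools or 4 deficient and 3 normal sums. In pools, EP300, an acetyltransferase for p53, averaged 250.0 ± 42.4 CPM in the deficient and 193 ± 11.8 CPM in the normal state, and UBE4B, a ubiquitin ligase for p53, 46.2 ± 16.1 CPM in the deficient and 31.2 ± 7.35 CPM in the normal state. CCNG1, the p53 target cyclin G1, averaged 268 ± 64.0 CPM in deficient pools and 188 ± 22.3 CPM in normal pools (log2 difference 0.51, SE 0.19). In single-oocyte sums it had the other sign, with 44.1 ± 3.99 CPM in deficient sums, against 55.0 ± 5.60 CPM in normal sums (log2 difference -0.31, SE 0.21, edgeR adjusted p 1.00). PLK3, a stress-induced kinase, averaged 28.3 ± 11.2 CPM in deficient pools, against 45.5 ± 17.8 CPM in normal pools.

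NBN, a subunit of the complex that senses double-strand breaks, averaged 28.5 ± 9.55 CPM in deficient pools, against 14.5 ± 4.18 CPM in normal pools (log2 difference 0.98, SE 0.28), while ATRIP, the partner of ATR, averaged 2.82 ± 2.28 CPM in deficient pools, against 6.27 ± 1.57 CPM in normal pools. CSNK1D, a casein kinase, averaged 9.10 ± 2.53 CPM in deficient pools, against 16.01 ± 8.53 CPM in normal pools, and ABL1, a tyrosine kinase, 73.8 ± 11.9 CPM in deficient pools, against 109 ± 46.3 CPM in normal pools. Like CCNG1, EP300 (log2 difference -0.40, SE 0.27) and CSNK1D (0.16, SE 0.25) had the other sign in single-oocyte sums. UBE4B, PLK3, ATRIP and ABL1 kept their sign there, and NBN was below the count filter. In single-oocyte sums the log2 differences were -0.90 (SE 0.38) for RCHY1, a ubiquitin ligase for p53, 1.03 (SE 0.61) for DAXX, a p53-binding protein, and 0.57 (SE 0.30) for APAF1, the core of the apoptosome. They were -1.43 (SE 0.54) for RAD1, part of the checkpoint clamp, 0.64 (SE 0.26) for TOPBP1, which activates ATR, 1.40 (SE 0.92) for SYCP1, of the synaptonemal complex, and -0.85 (SE 0.73) for HORMAD1, of the meiotic chromosome axis. Each of these had an edgeR adjusted p of 1.00.

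**Figure D5:**
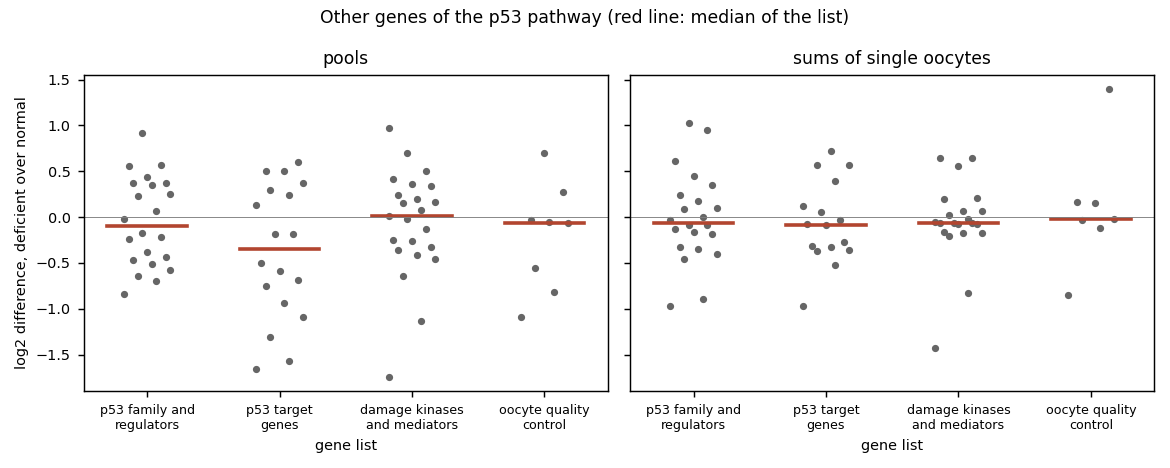
Log2 difference of deficient over normal for each tested gene of the 4 pathway lists, in pools (left) and in sums of single oocytes (right), with the median of each list as a red line. The points of every list lie on both sides of 0, and the lowest median, -0.34, is that of the p53 target genes in pools. Many of the lower genes behind that median were of low CPM.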

How the data were processed

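The authors deposited raw counts for each gene, in 1 table for pools and 1 for single oocytes. The submitters' processing notes name TopHat2 2.0.14, with FastQC, Trim Galore and edgeR, and the genome build Sscrofa10.2. How reads were counted, and with which strand setting, is not given in the sources used here. The row naming no gene (1.05% to 4.75% of the counts of a pool, 0.648% to 8.15% of an oocyte) was left out. Row names holding a gene number were matched through RefSeq names of Sscrofa11.1, which served also for which genes neighbour or overlap each other. None of its coordinates are printed, since the files use another build.

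Each table was fitted separately by edgeR 4.0.16 under R 4.3.3, using its quasi-likelihood test (default expression filter by state, TMM, Benjamini-Hochberg adjustment over all genes tested, threshold 0.05). Alternatives were DESeq2 1.42.0, limma-voom (limma 3.58.1), other size factors and filters, covariates, dates and leaving out each sample. The fit was tested on simulated data. No pair of libraries in a group agreed within sampling noise. The members, lists, tests and alternatives were chosen with earlier results of these data known. Genes named besides the members are the 5 most correlated with MDM2 over pools after taking out state means (log2 CPM, prior count 2, mean CPM of at least 10) and, from each list, the 2 of smallest p in each fit with a mean CPM of at least 1. A gene of the regulator list is not reported here and was left out of its counts. The design text gives 5 pools per group, and 6 normal pools were present and used.

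In single oocytes, sums of the same title number deviated together, with correlations of 0.143, 0.22 and 0.165 for numbers 2, 3 and 4. The highest with another number were -0.0612, -0.0757 and -0.0661. Numbers 2 and 3 each occur on a single date, so number and date cannot be told apart there. The main fit of the sums did not use the number, so its SEs, intervals and p-values leave this tie out. The number entered only as a replicate block among the alternatives. With that block the log2 difference of the sums was 0.15 (SE 0.54) for MDM4, 0.01 (SE 0.20) for TP63 and 0.19 (SE 0.17) for USP7. It was -0.19 (SE 0.20) for PPM1D, 0.07 (SE 0.34) for CHEK1 and -1.13 (SE 1.31) for TP53BP1. In pools the correlations were -0.105, 0.127, 0.476 and 0.0781 for A2, A3, B2 and B4. The highest with another number were 0.289, 0.12, 0.197 and 0.0224, so A3, B2 and B4 also exceeded theirs, A3 barely. The main fit did not take the labels to pair the pools.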

Additional observations from a re-analysis of the deposited data

How the results depend on the processing

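The MDM2 log2 difference in pools stayed positive over 21 other settings, from 2.05 with the 18S share as a covariate to 2.59 with the replicate block on the 4 shared labels (2.59 in the same pools without the block), and from 2.07 to 2.43 when 1 pool was left out. MDM2 was chosen on this contrast and its pools did not overlap, so nothing is read from the constant sign. In single oocytes the MDM2 log2 difference ran from -0.12 to 1.77 over 10 other settings, both ends reached by leaving out 1 sum (normal 2 and normal 3). It was below the count filter, with no value, without deficient sum 1 or 2, with the replicate block, with each oocyte as a sample and by date. No member was called in any setting of the single-oocyte or interaction tests. Genes called in pools were 28 by DESeq2 and 0 in the other settings. In single oocytes they were 2 by DESeq2, 4 with any count kept, 2 with the replicate block, 1 with each oocyte as a sample with or without the block (1 each), 2 among oocytes of 17 September and 0 in the others. For the interaction they were 1 by DESeq2, 6 with any count kept and 3 with each oocyte as a sample. Leaving out 1 sum gave -0.11 to 0.19 for TP63, -0.16 to 0.089 for PPM1D, -0.60 to 0.53 for TP53BP1 and -0.12 to 0.27 for CHEK1, so these signs are not settled. PPM1D was 0.086 on 17 September and CHEK1 -0.071 on 22 September. The interaction changed sign with any count kept for USP7 (-0.049), PPM1D (-0.0016) and CHEK1 (-0.037) and with each oocyte as a sample for CHEK1 (-0.059). The cause was not tested. MDM2, CDKN1A and TP53BP1 had few and uneven counts in single oocytes. Whether depth or spread between oocytes limits them was not tested. Upper-quartile size factors and the gene-number rows were added after seeing the data.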
